A study of Heterocephalus glaber with 3 samples.

Results

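The genes described here copy DNA and divide the chromosomes. They are the 50 features, of 23189 in the naked mole-rat (Heterocephalus glaber) annotation used, whose symbols are 1 of 22 listed names or match the CENP, MCM, GINS, ORC, NCAP or a set of mitotic KIF patterns, case ignored; the patterns added 28. By role, 19 are replication members, of which 14 act at origins or in the helicase and 5 at the fork or in nucleotide supply. The other 31 are mitosis members: 8 centromere proteins, 5 condensin subunits, 9 mitotic kinases and regulators and 9 kinesins. No measured value was used to choose them, but the choice was made with earlier results of these data known.

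Single-cell RNA sequencing (10x Genomics 3′) had been run on lung tumours of 3 naked mole-rats, 15 weeks after adenovirus delivered CRISPR edits. Among these edits were the Eml4-Alk inversion and the loss of Rb. Tumours were cut away from normal tissue by hand, and each animal gave 1 library. All 3 animals form a single group with the same edits, so no treatment, genotype or normal lung is compared here. The comparisons below are between cell classes within these animals, which are replicates 1, 2 and 3. The libraries hold tumour and host cells together. Whether a given cell carries the edits was not measured. P-values measure how differences between cell groups vary across these 3 animals only.

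Before a cell copies its DNA, the origin recognition complex (ORC) and CDC6 load the MCM helicase at origins, and CDC45 and GINS switch it on. PCNA then holds the polymerases on the template, while ribonucleotide reductase (RRM1 and RRM2) and TYMS supply nucleotides. In mitosis, condensin (NCAP) and TOP2A compact and untangle the chromosomes, CENP proteins build the kinetochore, and kinesins with CDK1, PLK1 and AURKA form and drive the spindle. UBE2C helps the anaphase-promoting complex to destroy mitotic proteins, and BIRC5 belongs to the chromosomal passenger complex. In a tumour these genes can be read in any dividing cell, malignant or not. Rb represses many of them through E2F factors.

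The 3 libraries held 29500 cell barcodes and 254618617 unique molecular identifiers (UMIs, each 1 captured RNA molecule), and 24599 cells were kept (7929, 8891 and 7779). The median UMI count of kept cells was 4965, 5172 and 8074. Replicate 3 was therefore the deepest. Between 21 and 31 barcodes were shared by any pair of libraries, none with an equal UMI total. Clustering without the 50 members gave 26 clusters, of which 6 stayed unnamed, and 3 of these (18, 19 and 24) held at least 90% of their cells from replicate 2. To describe the members at equal depth, every kept cell was thinned at random to 1000 UMIs, and levels are given in CPM, a gene's thinned UMIs scaled to a fixed total per group of cells. All 50 members had counts, and CPM are not divided by gene length, so values are compared within a gene and not between genes.

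Among origin and helicase members over all kept cells, GINS4, a subunit of the helicase activator, stood at 69.4, 63.3 and 95 CPM in replicates 1, 2 and 3. MCM3, a helicase subunit, was at 33.3, 50.6 and 39.2 CPM, and ORC6, the smallest origin recognition subunit, at 32.2, 29.1 and 54.6. ORC6 was high in replicate 3 alone. For the fork, Pcna was at 143.5, 125.6 and 91.0 CPM (mean 120 ± 26.7, SD, n = 3), falling below the other two libraries in replicate 3. RRM1 was at 61.9, 72.0 and 60.0 CPM and TYMS, which makes thymidylate, at 60.9, 62.3 and 65.6. Both stayed within a narrow range across the animals.

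Of the centromere members, CENPW was at 61.4, 52.5 and 53.0 CPM, CENPB at 46.2, 56.1 and 54.1, and CENPF at 41.1, 59.3 and 41.7. CENPB binds a motif of centromeric repeats, and CENPF accumulates at kinetochores late in the cell cycle. The condensin subunit NCAPD2 was at 24.0, 39.0 and 27.5 CPM, highest in replicate 2. TOP2A, the topoisomerase of dividing cells, was at 95.5, 153.2 and 85.0 CPM, UBE2C at 81.1, 71.5 and 82.3, and the spindle protein NUSAP1 at 25.4, 71.5 and 33.8. TOP2A and NUSAP1 were both highest in replicate 2, while UBE2C was lowest there. KIF22, a chromosome-arm kinesin, was at 19.9, 31.9 and 26.4 CPM. The mean level of CENPV was 0.63 CPM, of GINS3 1.20, of UHRF1 1.46 and of ORC1 1.56, and their differences between classes are not described.

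In all, 9 cell classes had at least 10 cells in every animal. They were named from marker genes, with the ending "-like" because the names were rebuilt here. The T-like class joins T and NK markers, and the epithelial-like class joins airway, alveolar type 2 and ciliated cells. T-like cells had the highest mean level of 26 of the 50 members. For only 3 of these (NCAPG2, PLK1 and Pcna) did the 3 animals not overlap with the class of the next highest mean. PLK1, as low as 18.5 CPM in T-like cells, still overlapped with dendritic-like cells, at 20.6 CPM in replicate 1. Dendritic-like cells led for 9, and RRM1, CENPL and NCAPD3 did so without overlap. RRM1 was at 139, 172 and 97.8 CPM in dendritic-like cells. Epithelial-like cells led for 4, among them KIF23 without overlap, and the other 6 classes led for between 1 and 3 each. No share over all features stands beside these counts, so they are a description only.

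**Figure D1:**
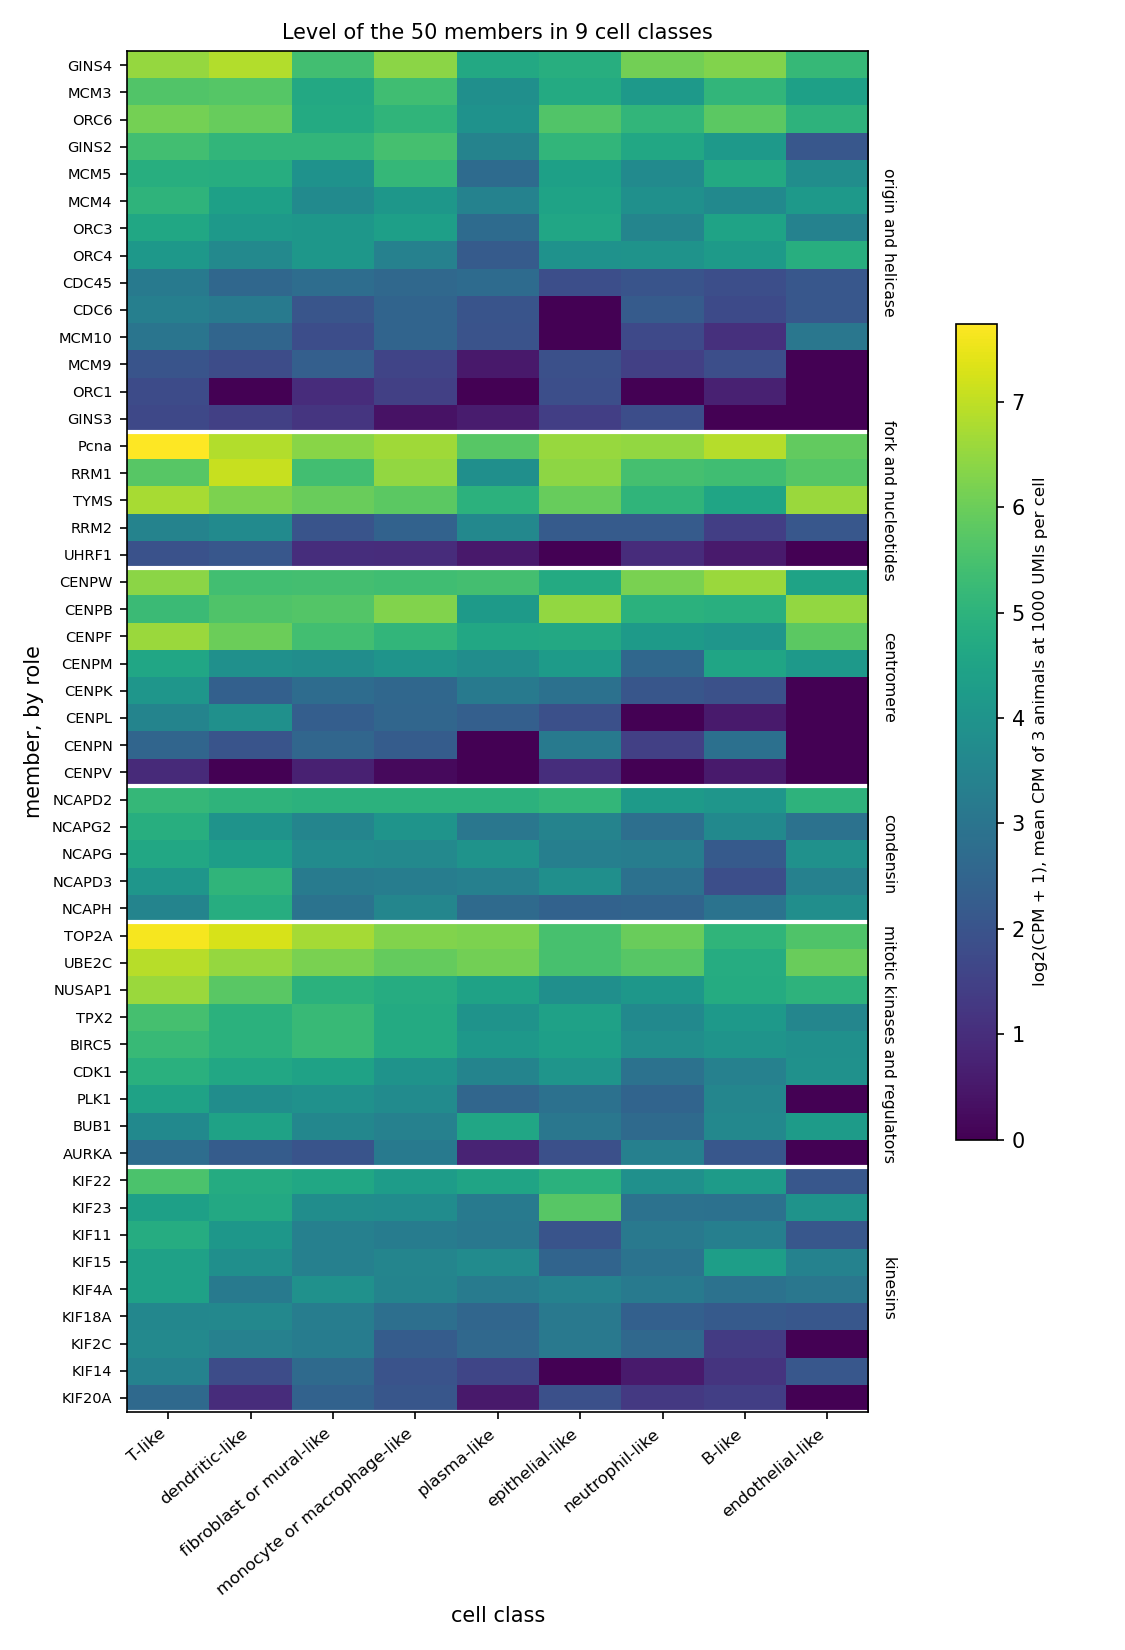
Mean level of each of the 50 members (rows, grouped by role) in the 9 cell classes (columns), as log2(CPM + 1) of the mean over 3 animals at 1000 UMIs per cell. T-like cells hold the highest level of 26 members, dendritic-like cells of 9, and the epithelial-like column stands out at KIF23.

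To ask how many cells of each class expressed mitosis members, cells with UMIs of at least 2 different mitosis members after thinning were counted. Over all kept cells these were 10.0%, 12.6% and 10.7% in replicates 1, 2 and 3. The T-like share was 14.2%, 20.8% and 12.2% (mean 15.7% ± 4.5, SD, n = 3), and the dendritic-like share 15.6%, 14.5% and 8.44%. The fibroblast or mural-like share was 11%, 11% and 8.48%, the monocyte or macrophage-like share 7.90%, 8.13% and 12.7%, and the plasma-like share 9.12%, 14.9% and 4.22%. The T-like shares all lay above the fibroblast or mural-like ones, and every other pair of these 5 classes overlapped between animals. Epithelial-like cells gave 6.22%, 7.20% and 9.64%, neutrophil-like cells 4.15%, 5.41% and 6.87%, and B-like cells 4.66%, 5.03% and 5.97%. In endothelial-like cells the share was 8.91% and 6.67% in replicates 2 and 3, and 0 of 53 cells in replicate 1, which allows up to 5.66%.

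A share above 0 does not show by itself that cells divide, as free RNA can add mitosis UMIs to other cells, and its amount was not estimated here. Mature neutrophils do not divide, and the neutrophil-like cluster with CXCR2 and CSF3R (cluster 6) gave 2.19%, 3.83% and 3.05% at a median depth of 1522 UMIs. Shares near 3% are read here as background for cells this shallow, and a background at greater depth was not measured. Cells were thinned to equal depth, but the share still rose with the depth a cell had before thinning. In T-like cells it was 4.84% below and 26.6% above the class's median depth in each animal (means of 3 animals), and over all kept cells 6.02% and 16.2%. The deeper part was higher in 3 of 3 animals in T-like, dendritic-like, epithelial-like, fibroblast or mural-like, monocyte or macrophage-like, neutrophil-like and plasma-like cells. The part of this depth in the differences between classes was not tested.

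Clusters within a class differed more than the classes did, and these differences are described with no test because the clusters were singled out after their values were seen. Among T-like cells, cluster 2, led by GZMA, NKG7 and PRF1 of cytotoxic cells, had a share of 25.9%, 33.9% and 16.8%. Cluster 13, led by FOXP3 of regulatory T cells, had 12.9%, 15.9% and 18.8%. Cluster 1, led by CD40LG and IL7R, had 3.11%, 5.84% and 6.09%, below both of the others in every animal. In cluster 2 the TOP2A level was 324, 505 and 90.9 CPM, against 21.2, 46.0 and 35.8 in cluster 1. Replicate 3 had 220 cells in cluster 2, against 796 and 1117. Of the T-like clusters, cluster 2 was 7.68% below and 43.4% above its median depth.

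In the myeloid clusters, the macrophage cluster 5, led by FABP4 and GPNMB of lipid-handling macrophages, had a share of 19.0%, 16.7% and 17.3%. The C1QB cluster 8 had a mean of 9.94% over 3 animals. The VCAN cluster 12 had a mean of 3.31% and cluster 3, with IDO1 and CXCL11, had 4.53% and 5.13% in replicates 1 and 2 and 0 of 55 cells in replicate 3, which allows up to 5.45%. Cluster 12 was thus near mature neutrophil-like cluster 6, and cluster 3 lay above it in replicates 1 and 2. Neutrophil-like cluster 21, led by the granule genes ELANE and MPO that are made in bone-marrow precursors, had 25.4%, 37.5% and 18.5%, above mature cluster 6 in 3 of 3 animals. It held 156 cells. Its TOP2A level was 254, 500 and 169 CPM. The unnamed cluster 7, with MMP7 and SERPINB2 and most of its cells from replicate 3, had 18.4%, 22.2% and 22.7%. In replicate 2 the clusters found almost only there had 24.5% (cluster 18), 16.7% (cluster 19) and 12.6% (cluster 24), and they have no replicate.

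**Figure D2:**
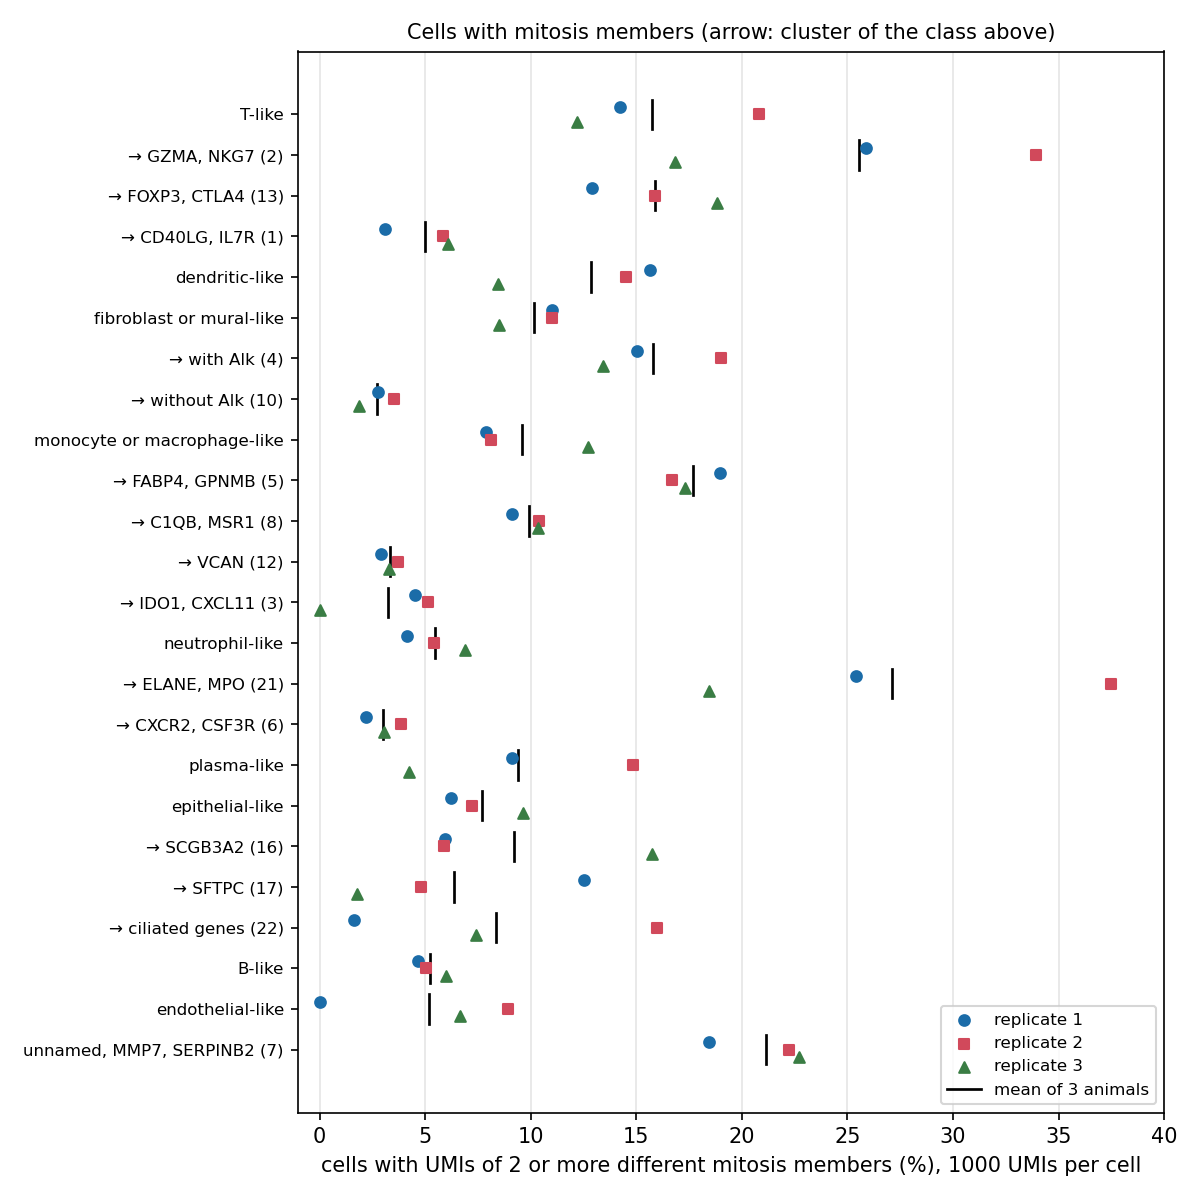
Share of cells with UMIs of 2 or more different mitosis members (horizontal axis, percent, 1000 UMIs per cell) for each class and, behind arrows, its clusters; points are the 3 animals and the bar their mean. GZMA cells (25.9%, 33.9% and 16.8%) and ELANE cells lie far right, and cluster 1, cluster 6 and the fibroblast cluster without Alk lie near the left edge.

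For tests, thinned counts were summed per animal and class, and each class was compared with the mean of the other 8 in edgeR's quasi-likelihood test with the animal as a block and Benjamini-Hochberg adjustment over all 9658 features that passed the filter on low counts. A log2 difference is relative to the mean of the other classes. Of the 50 members, 35 passed the filter. The classes were clustered from the same cells, although without the members, so these p-values are not calibrated. A test of 1 value over 3 animals could not go below an exact p of 0.25.

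In T-like cells members of every role were higher than in the other classes. Called higher were 25 of the 35 tested members, beside 21.7% of all features tested. Only CENPB was called lower, beside 13.9%. Scaled by library size, 29 were higher and none lower, beside 3128 and 1046 of all 9658 features. With no filter on low counts 36 of all 50 were higher, beside 17.2% of 17616 features, and none lower, beside 6.37%. Over the 32 tested members with counts in every class the median log2 difference was 0.83, against 0.10 over the 8026 such features. By role, 6 of 8 origin and helicase members, 2 of 3 fork members, 3 of 5 centromere members, 2 of 5 condensin subunits, 7 of 8 kinases and regulators and 5 of 6 kinesins were called higher.

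Pcna was at 228, 235 and 177 CPM in T-like cells of replicates 1, 2 and 3, and at 112, 79.2 and 72.1 in the mean of the other classes. The groups did not overlap (log2 1.21, SE 0.13, edgeR adjusted p = 9.38e-11). TYMS was at 101, 97.6 and 120 CPM against 53.7, 49.3 and 58.1 (log2 1.02, SE 0.16). Of the helicase genes, MCM4 was at 25.5, 49.0 and 21.2 CPM against 13.5, 17 and 15.5 (log2 1.00, SE 0.22). ORC6 differed by 0.92 (SE 0.18) and GINS2 by 0.85 (SE 0.23) on the log2 scale. Against all other cells pooled, GINS2 was no longer called (edgeR adjusted p = 0.176). The same held for GINS4 (0.115), MCM3 (0.215), MCM5 (0.915) and BIRC5 (0.117). RRM1 was then called lower (log2 -0.50, edgeR adjusted p = 0.00976). In that comparison 25 of 46 members were higher and 2 lower, beside 2580 and 3079 of 10886 features.

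TOP2A was at 183, 293 and 122 CPM in T-like cells against 60.2, 101 and 60.1 elsewhere, with no overlap (log2 1.41, SE 0.16, edgeR adjusted p = 4.62e-10). NUSAP1 was at 54.1, 162 and 66.1 CPM against 16, 36.2 and 29.4 (log2 1.77, SE 0.17). Replicate 2 had the highest T-like level of both. CENPF was at 80.1, 117 and 87.3 CPM against 25.7, 33.8 and 43.2 (log2 1.59, SE 0.20), and CENPW differed by 0.81 (SE 0.17). KIF11, the motor that separates spindle poles, was at 29.2, 30.2 and 21.2 CPM against 7.17, 9.26 and 7.88, with no overlap (log2 1.65, SE 0.29). The condensin subunits NCAPG2 and NCAPG differed by 1.296 (SE 0.23) and 1.03 (SE 0.26), and KIF4A by 1.29 (SE 0.27).

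For 3 members the endothelial-like sums were at 0 in every animal, so only levels are given, as a fitted fold then depends on the prior count. PLK1, the polo kinase, was at 20.7, 24.1 and 18.5 CPM in T-like cells and at 7.52, 9.55 and 7.68 in the mean of the others. CENPK was at 17.5, 19.7 and 9.70 CPM against 4.41, 6.61 and 2.17, and KIF2C at 7.42, 19.7 and 7.05 against 5.04, 6.59 and 3.93. All 3 were called, and no animal overlapped. CENPB was the exception in T-like cells, at 39.2, 46.0 and 28.2 CPM against 55.6, 55.4 and 49.98 (log2 -0.52, SE 0.18, edgeR adjusted p = 0.0221). That call was lost when counts were scaled by library size (adjusted p = 0.135) and when any 1 animal was left out.

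Other genes of the same processes, from lists of 25 replication and 36 mitosis genes with a symbol here, went the same way in T-like cells. Of the tested ones 10 of 20 and 17 of 25 were called higher than the mean of the other classes and none lower. Against all other cells pooled, the genes named below in this paragraph were still called higher. Called lower there were TIMELESS of the replication list (log2 -1.25, edgeR adjusted p = 2.13e-05) and LMNB1 of the mitosis list (log2 -0.67, edgeR adjusted p = 0.00104). HELLS, a chromatin remodeller of replicating cells, was at 50.9, 67.4 and 46.7 CPM against 15.4, 17.7 and 17 (log2 1.65, SE 0.21). TK1, the thymidine kinase of S phase, differed by 1.45 (SE 0.26), CLSPN of the replication checkpoint by 1.3 (SE 0.23) and FBXO5, an inhibitor of the anaphase-promoting complex, by 2.12 (SE 0.36). NUF2 was at 48.8, 37.2 and 31.7 CPM against 23.7, 12 and 13, and CKAP2L at 13.8, 21.9 and 7.05 against 5.22, 8.07 and 3.00.

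Leaving out replicate 2 reduced the T-like count from 25 to 18. BIRC5, MCM3, MCM4, MCM5 and NCAPG were then no longer called, and CENPK and KIF2C no longer passed the filter. Without thinning 45 of 49 tested members were called, on larger sums and with more members tested. No share over all features stands beside these counts, so they are a description only.

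In monocyte or macrophage-like cells few members were called, and their count is not read as a result about the members. Called higher were 6 of 35, beside 23.6% of all features, and none was lower (beside 9.85%, and 8 of 35 at an unadjusted p under 0.05). They were the replication members MCM5, GINS2, GINS4, MCM3 and RRM1, and CENPB. A difference between roles was not tested. None of the 19 kinases, regulators, condensin subunits and kinesins tested was called. MCM5 was at 30.4, 35.2 and 38.1 CPM against 18.8, 17.6 and 17.9, with no overlap (log2 1.08, SE 0.20, edgeR adjusted p = 2.03e-05). RRM1 was at 90.7, 93.9 and 79.9 CPM against 60.2, 61.1 and 51.8, again with no overlap (log2 0.85, SE 0.14). GINS2 was at 36.3, 33.6 and 59.0 CPM against 26.6, 21.7 and 25.3 (log2 0.96, SE 0.22), and GINS4 differed by 0.64 (SE 0.18). CENPB was at 65.6, 77.3 and 88.5 CPM against 52.3, 51.4 and 42.4 (log2 0.73, SE 0.16).

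Outside the members, the single-strand binding subunit RPA1 was higher in these cells, at 30.9, 32.8 and 33.2 CPM against 12.9, 14.8 and 14.4 (log2 1.43, SE 0.23). Over the outside lists 2 of 20 replication and 2 of 25 mitosis genes were called higher and 1 of each lower. Against all other cells pooled, RRM1, MCM5 and CENPB kept their call, 3 of 46 members, beside 2085 of 10777 features. Called lower were 5 of the 46, beside 2095 features, so the count depends on what the class is set against.

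Plasma-like cells gave opposite answers under 2 scalings. With edgeR's TMM scaling 16 of 35 members were called higher and none lower, beside 12.9% and 7.91% of all features. Scaled by library size, 1 was higher and 16 were lower, beside 218 and 7102 of all 9658 features. The median log2 difference of all features tested moved from -0.09 to -1.74 between the scalings, and that of the members from 0.94 to -0.73. In both scalings the members lay above the median of all features. The 10 most abundant features took 68.7%, 63.8% and 75% of the plasma-like UMIs, against a mean of 12.1% in T-like cells. TMM factors were 0.34, 0.48 and 0.28 for the plasma-like sums.

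At equal UMIs per cell UBE2C was at 76.2, 78.4 and 49.2 CPM in plasma-like cells against 72.5, 60.0 and 65.3 in the mean of the others, and the groups overlapped. Pcna was at 54.4, 75.7 and 25.0 CPM against 134, 99.1 and 91.2, lower in every animal. Pcna was called higher under TMM (log2 0.53) and lower under library size (log2 -1.14). BUB1, the checkpoint kinase, was called higher under both, but at 17.7, 43.2 and 8.59 CPM against 9.74, 8.36 and 17.7 replicate 3 went against the others. BUB1 was singled out after its values were seen. Of the outside lists, 7 of 20 replication genes and 8 of 25 mitosis genes were called higher and none lower under TMM. Under library size none was higher, and 12 of 20 and 12 of 25 were lower. TIMELESS, of the fork protection complex, was at 19.0, 32.4 and 18.7 CPM against 15.1, 21.3 and 18.4 (TMM log2 2.11, adjusted p = 4.88e-07, and library size log2 0.44, adjusted p = 0.205, both edgeR).

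Fibroblast or mural-like cells as 1 class showed little. Called higher were 2 of 35 members, BIRC5 and TPX2, beside 25.9% of all features, and 4 lower, Pcna, RRM1, GINS4 and ORC6, beside 11.2%. BIRC5 was at 44, 36.7 and 28.6 CPM against 25.6, 19.4 and 18.9 (log2 0.70, SE 0.25). TPX2, which activates AURKA on the spindle, was at 34.8, 48.2 and 25.6 CPM against 22.7, 23.6 and 18.8 (log2 0.67, SE 0.24). Neither BIRC5 nor TPX2 was called in DESeq2, without the animal block, against all other cells, or when replicate 1 or replicate 2 was left out. RRM1 was at 42.2, 39.0 and 43.4 CPM against 66.3, 67.9 and 56.4 (log2 -0.52, SE 0.18), and no longer called when scaled by library size (edgeR adjusted p = 0.184), as for the other lower members. Under that scaling 5 members of this class were called higher and none lower, beside 3388 and 769 of all 9658 features.

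The class holds 2 clusters that differ in Alk, the kinase gene of the engineered inversion. Cluster 4, led by MMP3, SFRP4 and IGF2, had 11.05, 26.2 and 17.2 Alk CPM over all its UMIs in replicates 1, 2 and 3, and cluster 10, led by CCL19, FIBIN and MFAP4, had 2.02, 2.00 and 1.14. They are called here cells with and without Alk. The read does not tell the inversion from normal Alk RNA, and the partner gene was not analysed here. Cells with Alk were also deeper, with median UMI counts of 19925, 19048 and 15584 against 5695, 5528 and 4915. The part of depth before thinning in what follows was not tested. Alk was also counted outside these cells, at 64.7 CPM in cluster 18 of replicate 2. Over all its cells, cluster 24 had 57.0 Alk CPM and the epithelial-like cluster 16 had 15.2. The share of cells with mitosis members in cluster 16 was 6.40% below and 12.3% above its median depth (means of 3 animals). Replicate 1 went the other way, with 7.14% below and 4.76% above. The cluster held 84, 17 and 165 cells in replicates 1, 2 and 3.

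Cells with Alk had a higher level of most members than cells without. Of all 50 members, with no filter, 38 were at a higher CPM with Alk in 3 of 3 animals (12 of 19 replication and 26 of 31 mitosis members), beside 21.4% of 15164 features with a count, and 2 were lower in 3 of 3, beside 17.6%. In edgeR with no filter on low counts (6 sums) 25 of the 50 were called higher and none lower, beside 7.43% and 7.08% of those features. Only 17 members passed the filter, some of them through the cells with Alk alone, so the 15 of 17 then called higher and none lower (beside 16.3% and 17.6% of 4949 features) had in part to differ and support nothing further. The exceptions among the 17 were CENPB and RRM1. The members had been left out of the clustering, but cluster 4 was split off by other genes of the same cells. DESeq2 called 7 of the 17.

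CENPF was at 56.0, 99.8 and 49.8 CPM in cells with Alk and at 5.57, 8.87 and 4.63 in cells without (log2 3.24, SE 0.38). TOP2A was at 133, 249 and 112 CPM against 16.7, 39.9 and 16.2 (log2 2.60, SE 0.23). UBE2C was at 115, 121 and 91.1 CPM against 22.3, 22.2 and 16.2 (log2 2.27, SE 0.26). For all 3 the groups were far apart in every animal. BIRC5 was at 61.5, 68.9 and 43.0 CPM against 8.36, 6.65 and 9.26 (log2 2.64, SE 0.38), and TPX2 differed by 2.55 (SE 0.37). KIF22 and NCAPD2 differed by 1.29 (SE 0.40) and 1.28 (SE 0.36), and CENPW by 1.21 (SE 0.34). Some members named here and below passed the filter through the cells with Alk alone. Their log2 differences are descriptions and support nothing further.

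Of the replication members, which were not tested against the mitosis members, MCM3 was at 34.2, 40.4 and 30.9 CPM with Alk and 11.1, 13.3 and 6.94 without (log2 1.58, SE 0.39), and ORC6 at 31.4, 35.6 and 41.2 against 2.79, 8.87 and 23.1 (log2 1.45, SE 0.43). TYMS was at 104, 83.1 and 63.6 CPM against 30.6, 42.1 and 18.5 (log2 1.302, SE 0.26), and GINS2 differed by 1.27 (SE 0.33). Pcna was at 122, 99.8 and 89.3 CPM against 66.9, 46.6 and 37.0, with no overlap (log2 0.90, SE 0.22). RRM1 was at 45.1, 49.9 and 56.7 CPM against 36.2, 28.8 and 25.5 (log2 0.60, edgeR adjusted p = 0.134), and CENPB at 43.7, 64.1 and 61.9 against 39.0, 44.3 and 44 (adjusted p = 0.478).

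**Figure D3:**
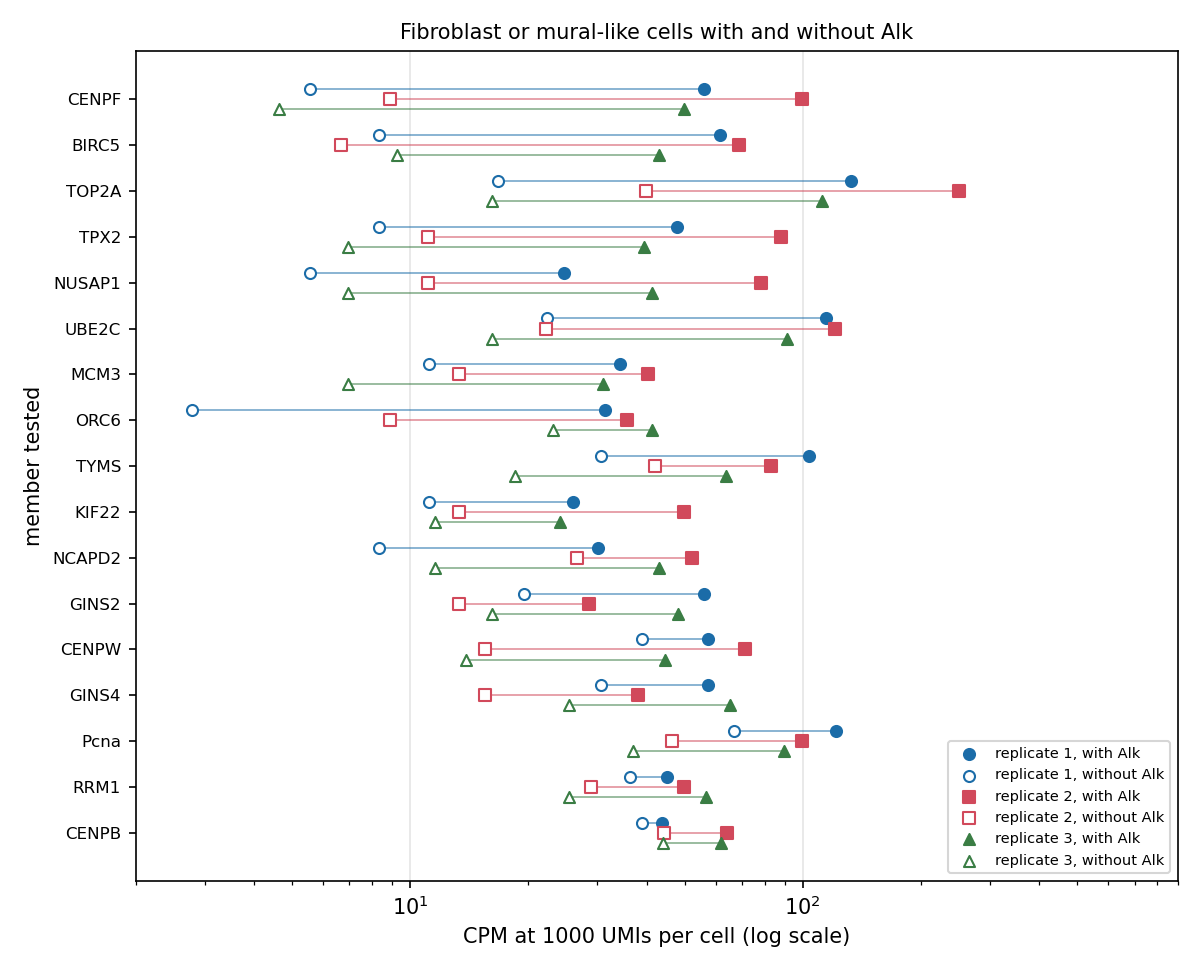
Level of the 17 tested members (rows) in fibroblast or mural-like cells with Alk (filled) and without (open), in CPM at 1000 UMIs per cell on a log axis, joined within each animal. CENPF, BIRC5 and TOP2A lie far apart in all 3 animals, and CENPB (adjusted p = 0.478) and RRM1 lie close.

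Among other genes of the processes that passed the filter, 12 of 14 mitosis genes and 3 of 8 replication genes were called higher and none lower. Some of these also passed through the cells with Alk alone, so these counts had in part to differ too. With no filter on low counts 20 of 36 and 5 of 25 were called higher, beside 7.43% of all features, again with none lower. CDC20, an activator of the anaphase-promoting complex, was at 56.0, 38.0 and 36.1 CPM with Alk and 2.79, 0 and 6.94 without. CKS2, a partner of CDK1, differed by 2.77 (SE 0.37) and the kinetochore gene NUF2 by 3.02 (SE 0.48). Of the replication genes, FEN1, which trims Okazaki fragments, differed by 1.502 (SE 0.40), DUT by 1.00 (SE 0.23) and RFC2 by 0.73 (SE 0.22).

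The share of cells with 2 or more mitosis members was 15.0%, 19.0% and 13.4% with Alk and 2.79%, 3.55% and 1.85% without, the latter near that of neutrophil-like cluster 6. In edgeR without cells bearing Alk, 21 of 31 tested members of the class were called lower than the other classes and none higher. No share over all features stands beside this count, so it is not read as a result about the members.

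In epithelial-like cells KIF23 and CENPB were higher under both scalings, while the balance of the other calls turned with the scaling. Under TMM 2 of 35 members were called higher, beside 18.5% of all features, and 5 lower, CENPW, NUSAP1, TOP2A, UBE2C and GINS4, beside 9.6%. Under library size 3 were higher, with RRM1 added (edgeR adjusted p = 0.00252), and only GINS4 was lower. Beside these, 2541 of all 9658 features were higher and 405 lower. Against all other cells pooled, 1 of 46 members, KIF23, was higher and 10 were lower, beside 1493 and 1844 of 11126 features. CENPB was not called there (edgeR adjusted p = 0.0937), while all 5 members lower under TMM were again called lower. TOP2A was at 20.7, 56.0 and 54.2 CPM against 80.4, 131 and 68.5, lower in every animal (log2 -1.04, SE 0.33, edgeR adjusted p = 0.0118). GINS4 was at 36.3, 24.0 and 24.1 CPM against 56.5, 58.1 and 85.2 (log2 -1.46, SE 0.37) and was still lower when scaled by library size (edgeR adjusted p = 0.0217). CENPW differed by -1.16 (SE 0.36) and UBE2C by -0.92 (SE 0.33), and leaving out 1 animal left between 1 and 3 of the 5 calls. CENPB was at 77.7, 72.0 and 117 CPM against 50.8, 52.1 and 38.8 (log2 0.78, SE 0.25).

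KIF23, the central spindle kinesin, was at 51.8, 56.0 and 48.2 CPM against 10.4, 12.2 and 17.1, with no overlap (log2 1.96, SE 0.43, edgeR adjusted p = 0.000217). Within the class it was highest in the ciliated cluster 22, at 148, 240 and 148 CPM. In the SCGB3A2 cluster 16 it was at 11.9, 0 and 36.4 CPM, and in the SFTPC cluster 17 at 0, 12 and 17.7. RRM1 was likewise at 213, 320 and 259 CPM in cluster 22. TOP2A was there at 16.4, 80.0 and 37.0 CPM, and KIF11 and CDC6 had no count in any animal. Cluster 22 held 61, 25 and 54 cells, so 1 UMI is 16.4, 40 and 18.5 CPM. Among outside genes, the tubulin TUBB4B stood in epithelial-like cells at 1472, 648 and 1199 CPM against 188, 204 and 227 (log2 2.16, SE 0.14), and the primase subunit PRIM2 at 130, 88.0 and 78.3 against 17.1, 11.9 and 17.9 (log2 2.51, SE 0.30).

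To see which members marked the same cells, levels were compared between cells with and without a TOP2A UMI after thinning (472, 787 and 439 cells with). Cells with one had been deeper before thinning, with median UMI counts of 9999, 10288 and 12782 against 4642, 4897 and 7823. Of 41 other members at 5 CPM or more, 30 were at least 2-fold higher in cells with a TOP2A UMI in 3 of 3 animals, beside 2.09% of the 9148 features at that level. Mitosis members made up 26 of them, of 27, and replication members only 4, of 14. The median of the mean ratios was 9.60 for mitosis and 2.39 for replication members. Cells share a library here, and the ratios are given as a description.

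KIF14, a cytokinesis kinesin, had ratios of 25.3, 25.2 and 20.3, KIF11 of 22.4, 10.9 and 19.99, and CENPF of 21.5, 15.9 and 15.7. UBE2C had 18.4, 11.8 and 16. CENPB was the mitosis member outside the pattern, at 1.36, 1.15 and 1.24. The replication members that passed were RRM2, CDC45, CDC6 and Pcna, and RRM2, the S-phase subunit of ribonucleotide reductase, had 6.71, 5.01 and 5.57 where its partner RRM1 had 2.63, 1.77 and 1.96. ORC3 was at 1.34, 0.72 and 0.66 and ORC4 at 0.41, 0.79 and 0.54, so neither was higher in cells with TOP2A in 3 of 3 animals. ORC4 was lower in all 3.

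The outside lists gave the same division, with 27 of 28 mitosis genes and 9 of 22 replication genes at 2-fold in 3 of 3 animals. Inside single classes the count was 22 of 27 mitosis and 5 of 14 replication members for T-like cells, and 22 and 3 for monocyte or macrophage-like cells. It was 14 and 1 for fibroblast or mural-like cells with Alk, and 12 and 3 for plasma-like cells. No share over all features stands beside these counts inside classes. A member with no UMI in an animal's cells of a class also met the limit there, such as NCAPH in plasma-like cells of replicate 3. These counts are therefore a description only.

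**Figure D4:**
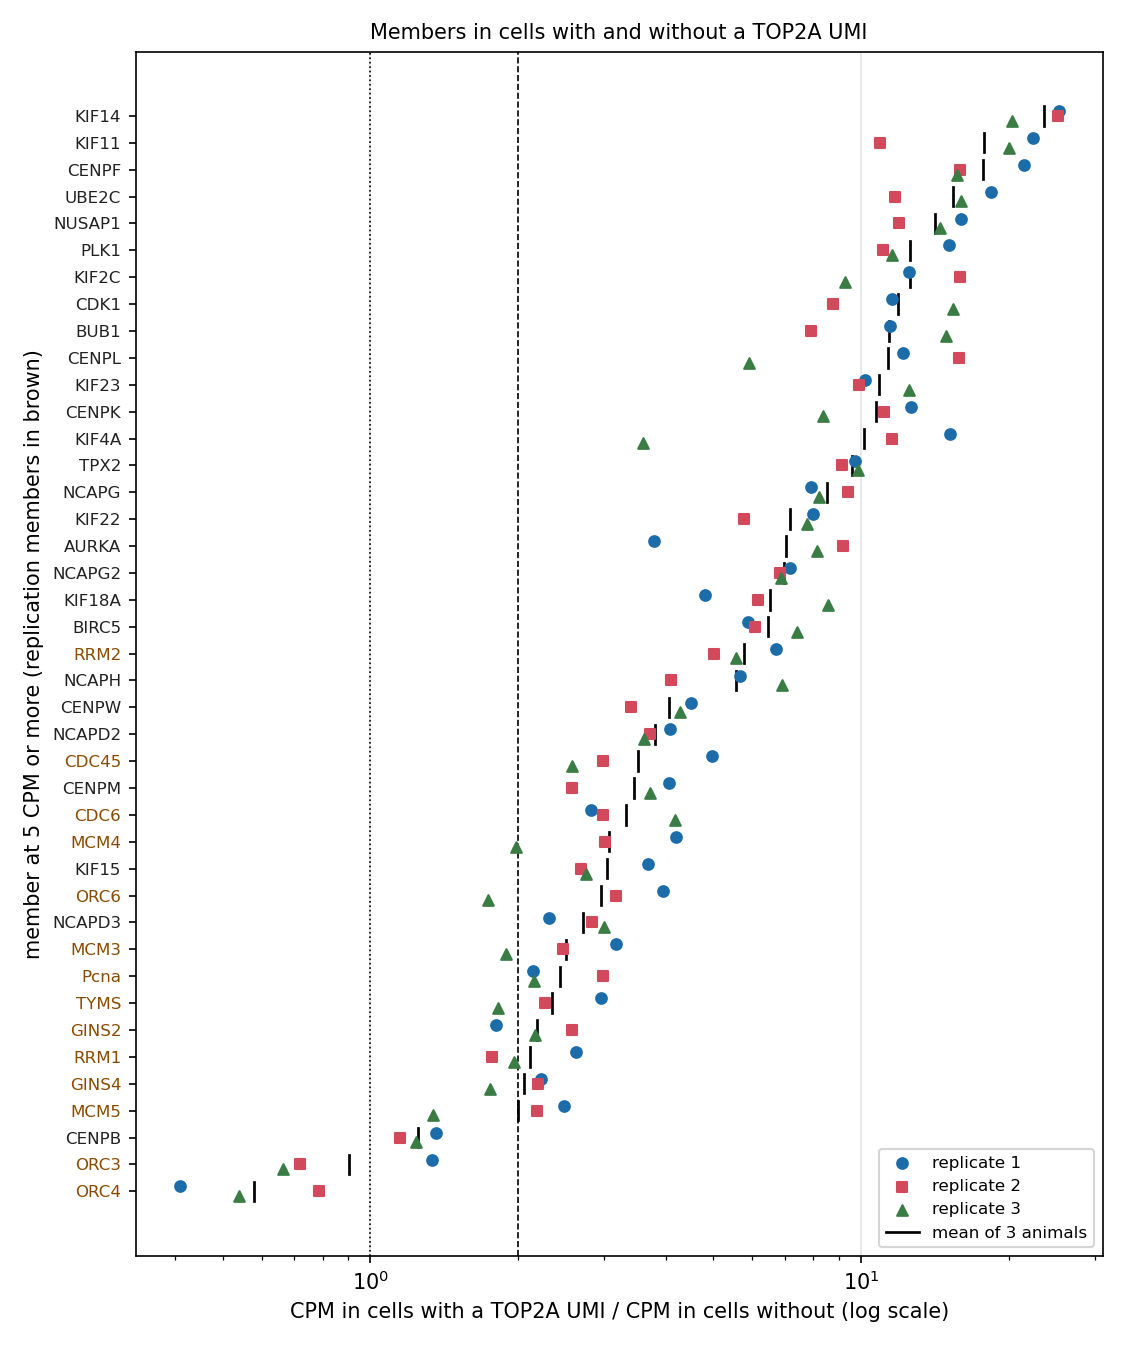
Ratio of each member's CPM in cells with a TOP2A UMI to that in cells without (horizontal log axis, 1000 UMIs per cell), for the 41 members at 5 CPM or more; points are the 3 animals, the bar is their mean, dotted and dashed lines mark ratios of 1 and 2. Mitosis members (black) fill most of the upper rows up to KIF14 and replication members (brown) most of the lower rows. The split is not clean, as RRM2 had a mean ratio of 5.77, above NCAPH (5.55) and CENPW (4.06). CENPB, ORC3 and ORC4 lie at the bottom.

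The ratio of replication to mitosis UMIs within a class does not depend on the scaling between classes. Over all kept cells it was 0.82, 0.66 and 0.82. Plasma-like cells had 0.45, 0.36 and 0.57, and T-like cells 0.72, 0.58 and 0.81. Monocyte or macrophage-like cells had 1.07, 0.88 and 0.86 and B-like cells 1.15, 0.91 and 1.06, without overlap with plasma-like cells. Fibroblast or mural-like cells with Alk had 0.65, 0.35 and 0.62 and cells without 1.18, 0.86 and 0.98, and these did not overlap either. Among T-like clusters the mean ratio was 0.65 in cluster 2, 0.62 in cluster 13 and 1.34 in cluster 1, and among neutrophil-like ones 0.50 in cluster 21 and 1.26 in cluster 6. The ratio divides by the mitosis UMIs that also set the share of cells with mitosis members, so it is no separate evidence on these clusters. Replicate 2 had the lowest ratio in T-like, plasma-like and B-like cells and in both fibroblast clusters.

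Members also differed between animals. KIF4A, which shapes chromosomes and the spindle midzone, was at 6.43, 11.5 and 20.3 CPM over all kept cells, and replicate 3 was highest in 9 of 9 classes. In cells without a TOP2A UMI it was at 3.49, 5.92 and 17.7 CPM, and in cells with one at 53.0, 68.6 and 63.8. The excess of replicate 3 was therefore in cells without a TOP2A UMI. ORC6 was highest in replicate 3 in 8 of 9 classes, all but epithelial-like cells, and in cells without a TOP2A UMI it was at 27.4, 24.4 and 52.5 CPM. NUSAP1 was highest in replicate 2 in 6 of 9 classes and TOP2A in 8 of 9. In T-like cells NUSAP1 was at 162 CPM in replicate 2, against 54.1 and 66.1.

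Such differences were not particular to the members. Of 33 members at 10 CPM or more, 2 stood over 1.8-fold above the mean of the other animals in 1 animal (6.06%), against 639 of 7205 features (8.87%). The median of the largest ratio was 1.25 for members and 1.28 for all features. With 1 library per animal, the animal and the library preparation cannot be told apart.

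**Figure D5:**
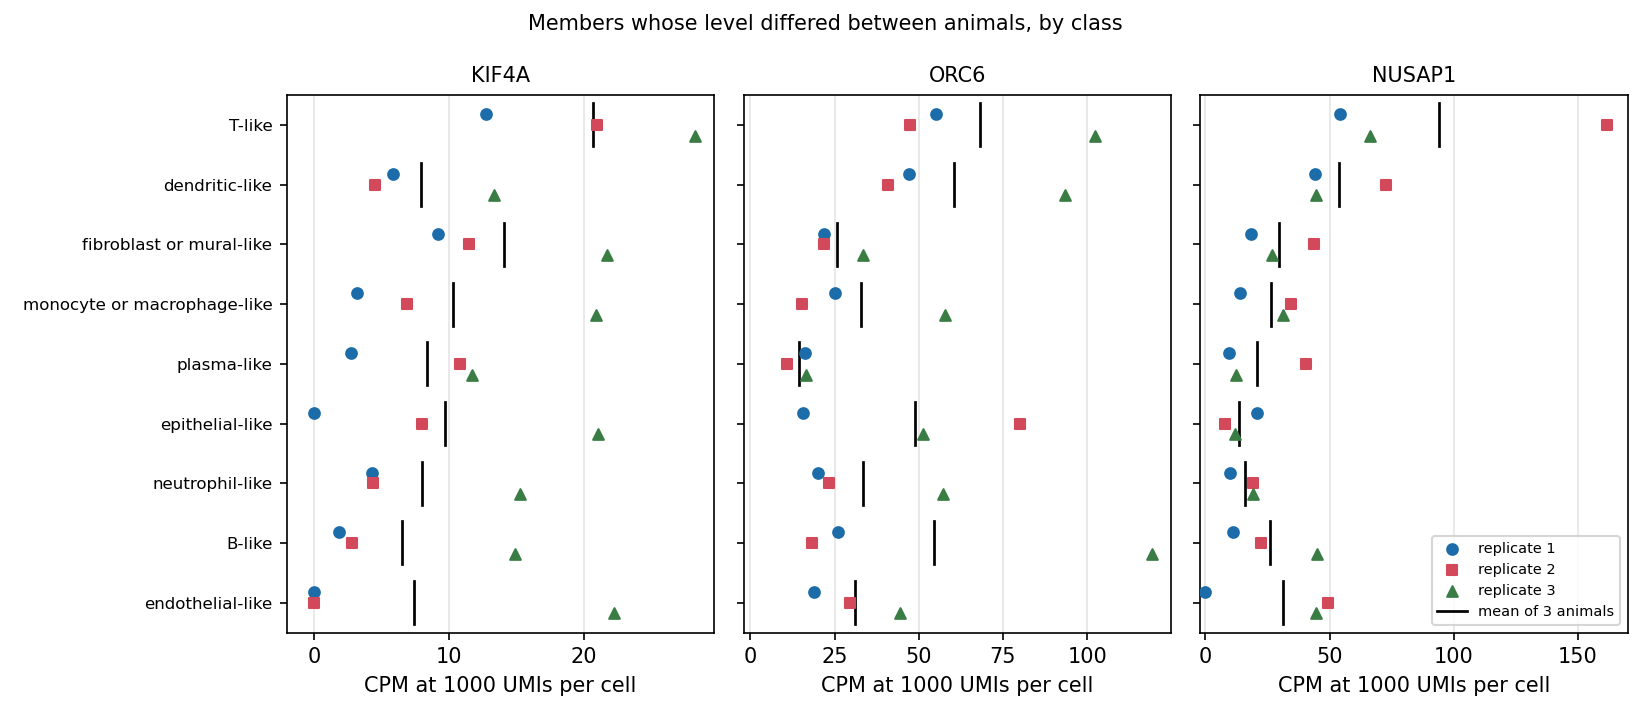
Levels of KIF4A, ORC6 and NUSAP1 (panels; horizontal axis CPM at 1000 UMIs per cell) in the 9 classes (rows); points are the 3 animals and the bar is their mean. Replicate 3 (triangles) is the highest point for KIF4A in 9 of 9 classes and for ORC6 in 8, and replicate 2 (squares) reaches 162 CPM for NUSAP1 in T-like cells.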

How the data were processed

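Counts were deposited as whole-number UMI counts per feature and cell, made by the authors with Cell Ranger (7.1.0 per the file headers, 8.0.0 per the submitters' processing notes); the genome build was not given in the sources used here. Symbols were used as the files give them, and 11611 of 23189 features carry none. A further edit shared by all 3 animals is not reported here. The members and gene lists were chosen with earlier results of these data known.

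Cells with at least 1000 UMIs and 500 features and at most 20% mitochondrial UMIs were kept, and 445 with a Scrublet score of 0.2 or more were removed (the automatic limit marked 1 of 25044 cells). Clustering (scanpy 1.11.5, 2000 variable genes without members or list genes, 30 components, Leiden resolution 1) preceded naming. A name needed 3 markers in 10% of cells and a mean log2 gain of 1, a rival under 75% of its score and under 90% of cells from 1 animal; these limits were set after the clusters were seen.

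Cells were thinned to 1000 UMIs, which left out none. Sums per animal and class (27, and 6 for the Alk split at 5 Alk CPM) were tested in edgeR 4.0.16 (R 4.3.3, TMM, filterByExpr, adjusted p threshold 0.05). The animal block was used because all sums of a number come from the same animal. Tested on simulated data, the T-like step recovered 78.6% of 2-fold and 100% of 4-fold higher genes, and the Alk split 36.7% and 100%. Of 2-fold and 4-fold lower genes the T-like step recovered 38.5% and 89.7%, and the Alk split 30.3% and 97.2%. The simulated sums had the same mean profile in all classes, no animal effect and a fixed dispersion, unlike the real sums. Limits for a count of 0 use 3 counts and, like all shares, cover counting error only. Named were the 3 called members per role with the largest change in the same direction in 3 of 3 animals, and the 3 per role with the highest mean level. Other scalings, filters, depths, clusterings and DESeq2 1.42.0 were tried as alternatives.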

Additional observations from a re-analysis of the deposited data

How the results depend on the processing

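Values are numbers of members called unless said otherwise. Where no share over all features stands beside them, they are a description only. Library size scaling turned the balance of member calls from higher to lower in plasma-like cells (member median log2 from 0.94 to -0.73) and from lower to higher in epithelial-like and fibroblast or mural-like cells, and setting a class against all other cells turned it from higher to lower in monocyte or macrophage-like cells. Without thinning, counts higher rose to 45 (T-like), 13 (monocyte or macrophage-like), 32 (plasma-like), 6 (fibroblast or mural-like) and 43 (with Alk against without) and fell to 1 in epithelial-like cells, and counts lower rose to 27 (epithelial-like) and 11 (fibroblast or mural-like). At 2000 UMIs per cell 0 T-like members were lower, 8 epithelial-like lower, 1 fibroblast or mural-like higher and 1 monocyte or macrophage-like lower. With no filter on low counts 0 T-like and 2 fibroblast or mural-like members were lower, and 25 were higher with Alk. DESeq2 called 0 fibroblast or mural-like members higher and 7 with Alk.

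With no replicate block 0 T-like, 3 epithelial-like and 1 fibroblast or mural-like members were lower and 0 fibroblast or mural-like higher; the block moved no other count by over 1.5 times. With members kept in the clustering 3 epithelial-like and 7 monocyte or macrophage-like members were lower and 4 fibroblast or mural-like higher. At Leiden resolution 2, and with doublets kept, 0 fibroblast or mural-like members were higher.

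The next alternatives were added after seeing the data. A second random thinning left 1 epithelial-like member higher. Against all other cells 2 T-like, 10 epithelial-like, 13 fibroblast or mural-like, 5 monocyte or macrophage-like and 1 plasma-like members were lower, and 1 epithelial-like, 0 fibroblast or mural-like and 3 monocyte or macrophage-like higher. Under library size scaling 0 T-like, 1 epithelial-like, 0 fibroblast or mural-like and 16 plasma-like members were lower, and 3 epithelial-like, 5 fibroblast or mural-like and 1 plasma-like higher. That scaling moved the median of all features by 0.18 (T-like), 0.37 (epithelial-like), 0.21 (fibroblast or mural-like), 0.04 (monocyte or macrophage-like), -1.65 (plasma-like) and 0.15 (with Alk). It moved the share of higher among all calls from 61.0% to 74.9%, 65.9% to 86.3%, 69.9% to 81.5%, 70.5% to 73.8%, 62.0% to 2.98% and 48.2% to 59.8% in that order. Without its Alk cluster the fibroblast or mural-like class had 0 higher and 21 lower.

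Leaving out each animal in turn gave 18 to 25 T-like members higher and 0 lower, 1 to 2 epithelial-like higher and 1 to 3 lower, 0 to 2 fibroblast or mural-like higher and 1 to 3 lower, 4 to 6 monocyte or macrophage-like higher and 0 to 1 lower, 10 to 19 plasma-like higher, and 11 to 14 higher with Alk. The 10 plasma-like members came without replicate 1 and again without replicate 2.

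The mean share of cells with 2 different mitosis members at 2000 UMIs per cell was 18.3% (B-like), 27.8% (T-like), 24.2% (dendritic-like), 15.6% (epithelial-like), 16.4% (fibroblast or mural-like), 18.2% (monocyte or macrophage-like), 16.1% (neutrophil-like) and 15.3% (plasma-like), over fewer cells since shallower ones were left out. Asking for 3 different members gave 1.21%, 10.4%, 7.72%, 4.08%, 5.40%, 4.67% and 2.71% for the first 7 of these. With members kept in the clustering it was 5.91% in monocyte or macrophage-like and 4.05% in neutrophil-like cells. The mean ratio of replication to mitosis UMIs moved to 0.89 in B-like cells at 2000 UMIs and to 1.39 in monocyte or macrophage-like cells with members kept in the clustering. The causes of these moves were not tested.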
